A study of Mus musculus with 37 samples.

Results

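Levels of 10 resident macrophage genes were followed in mammary glands of irradiated and sham-treated mice. The genes were Cd163, Mrc1, Cd209d, Cd209f, Fcna, Siglec1, Lyve1, Csf1r, Cd68 and Timd4. Each was read from a probe set annotated with that symbol alone, the one with the highest mean over the 37 arrays where a gene had several. They were 10 of 18820 genes with such a probe set, and all 10 were among the 13174 genes bright enough to be tested. Each had 1 probe set of its own. Fcna had 1 more that carries another symbol as well, which was not used. Values are log2 levels, so a difference of 1 is a doubling, and levels are compared within a gene only.

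The arrays held total RNA of whole glands from female BALB/c mice. One inguinal gland of each mouse had been cleared weeks before exposure, and the opposite, intact gland was measured. Mice were exposed at 10 weeks of age to 100 cGy of gamma rays, to 30 or 10 cGy of silicon ions at 350 MeV/amu, or to a sham procedure, and glands were taken 1, 4 or 12 weeks later. There were 3 arrays in each of the 12 groups, and a 4th in sham at week 4. All groups share the surgery, the strain, the sex and the transport to the irradiation facility. Week 1 glands were collected at that facility, later glands after the mice had travelled home, so that week, age and place of collection cannot be told apart. The labels do not say whether replicates are separate animals, so the p-values reflect variation among these samples only, and it may be technical.

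Tissue macrophages sit along the ducts and in the fat and connective tissue of the mammary gland, where they clear dying cells and take part in ductal remodelling. Those resident in connective tissue are known for scavenger receptors and C-type lectins at the cell surface, which bind and take up sugars, hemoglobin complexes and debris. Survival of nearly all macrophages depends on signals through the CSF1 receptor. In whole-gland RNA, fewer macrophages and less RNA per macrophage cannot be told apart.

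Markers of the labelled tissue were present. Mean log2 levels of the genes listed for luminal epithelium lay between 8.11 and 9.56 over the 37 arrays, those for basal epithelium between 6.85 and 8.65, and those for white adipocytes between 11.0 and 11.7. Of 14 genes that macrophages in general express, 14 passed the brightness filter, with mean levels between 7.12 and 8.29. Genes of T, NK and B cells, the cells of the lymph node inside this gland, averaged between 3.94 and 8.36. Correlation with the other arrays was lowest, as a median, for sham week 1 replicate 3 (0.932) and sham week 4 replicate 1 (0.946). Replicate 3 of sham week 1 also had the highest lymphocyte marker mean, 8.36, and the lowest Cd163, Mrc1, Cd209f and Fcna values of all arrays, so results that rest on it are given with and without it.

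The promoters of the 5 genes that rose between week 1 and week 12 are shown, chosen for that rise. Shared control of these genes was not tested. Each window runs from 250 bases before to 50 after a RefSeq transcript start (GRCm38.p6), on the strand of the gene. Windows of 7 of the 10 genes were searched. Siglec1 and Lyve1 had no window and Csf1r was left out of the search, so the counts of matches do not cover these genes. Capitals mark 3 letter patterns searched on both strands: GAGGAA, the core bound by the myeloid factor PU.1, TGCTGA, a core bound by MAF factors, and TATAAA, the TATA box. No match overlapped another. Cd163 lies at chr6:124304401-124304700 on the plus strand, Mrc1 at chr2:14229164-14229463 on the plus strand, Cd209d at chr8:3878450-3878749 on the minus strand, Cd209f at chr8:4105715-4106014 on the minus strand, and Fcna at chr2:25627925-25628224 on the minus strand, inside the span that RefSeq lists for the gene.
Cd163: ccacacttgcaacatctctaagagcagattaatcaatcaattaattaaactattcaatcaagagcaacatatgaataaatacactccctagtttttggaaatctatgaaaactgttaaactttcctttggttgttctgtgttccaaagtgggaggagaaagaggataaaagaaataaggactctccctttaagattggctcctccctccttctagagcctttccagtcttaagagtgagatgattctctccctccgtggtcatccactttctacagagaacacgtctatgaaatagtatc
Mrc1: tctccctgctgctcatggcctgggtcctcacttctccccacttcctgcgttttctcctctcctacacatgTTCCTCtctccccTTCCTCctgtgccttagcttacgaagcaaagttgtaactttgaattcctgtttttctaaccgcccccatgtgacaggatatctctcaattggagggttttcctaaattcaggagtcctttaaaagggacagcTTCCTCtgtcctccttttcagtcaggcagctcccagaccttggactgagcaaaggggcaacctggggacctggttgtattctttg
Cd209d: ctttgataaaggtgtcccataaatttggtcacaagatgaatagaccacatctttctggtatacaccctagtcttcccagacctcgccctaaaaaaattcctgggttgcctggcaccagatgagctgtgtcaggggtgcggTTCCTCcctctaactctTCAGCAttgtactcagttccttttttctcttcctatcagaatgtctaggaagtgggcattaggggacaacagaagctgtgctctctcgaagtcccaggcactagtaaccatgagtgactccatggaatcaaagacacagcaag
Cd209f: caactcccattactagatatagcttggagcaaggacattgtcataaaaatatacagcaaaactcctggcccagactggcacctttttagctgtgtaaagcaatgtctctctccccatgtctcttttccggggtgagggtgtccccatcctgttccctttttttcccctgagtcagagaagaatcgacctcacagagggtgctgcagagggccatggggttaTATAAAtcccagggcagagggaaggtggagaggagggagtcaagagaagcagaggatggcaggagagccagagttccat
Fcna: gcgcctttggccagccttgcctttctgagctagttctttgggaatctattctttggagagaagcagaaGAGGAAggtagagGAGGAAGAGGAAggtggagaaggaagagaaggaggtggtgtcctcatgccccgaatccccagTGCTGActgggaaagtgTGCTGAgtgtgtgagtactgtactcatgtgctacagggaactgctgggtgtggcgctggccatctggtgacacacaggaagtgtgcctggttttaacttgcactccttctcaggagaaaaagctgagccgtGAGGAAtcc
GAGGAA occurred in 4 of the 7 windows, against 28.3% of 32851 windows of all genes. TGCTGA occurred in 3 of the 7, against 19.5%, and TATAAA in 1, against 13.6%. Mrc1 held GAGGAA at 3 places and Fcna at 4, with TGCTGA at 2 places in Fcna. Cd209d held 1 match to each of these 2 patterns, and Cd209f a TATAAA whose first letter lies 29 bases before the start. The Cd163 window held none of the 3. A match is a description of letters, not a bound site.

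Cd163, Mrc1 and Cd209f were higher at week 4 than at week 1, and at week 12 so were these 3 with Cd209d and Fcna. The mean of the 4 treatments was compared between weeks in 1 limma model over all arrays, with Benjamini-Hochberg adjustment over the 13174 genes and a gene counts as called at an adjusted p under 0.05. At week 4, 3 of the 10 genes were called higher than at week 1 and 0 lower, where 11% of all genes tested were called higher and 14.8% lower. At week 12, 5 of the 10 were called higher than at week 1 and 0 lower, where 15.2% of all genes were called higher and 20.4% lower. Median log2 differences over the 10 genes were 0.32 at week 4 and 0.19 at week 12, against 0.00 and −0.02 over all genes tested. Between week 12 and week 4, 0 of the 10 genes were called in limma, 0 had an unadjusted p under 0.05, and 1.64% of all genes were called. Leaving out single arrays gave counts of 2 to 6 genes at week 4 and 2 to 5 at week 12. Cd209f lost its week 4 call without gamma week 1 replicate 1 or 3, or without sham week 1 replicate 3. The same held without 30 cGy silicon week 1 replicate 3 or week 4 replicate 3. It also held without 10 cGy silicon week 1 replicate 2 or week 4 replicate 1. In these limma fits the adjusted p of Cd209f lay between 0.0560 and 0.0702. At week 4 the count was 6 without 30 cGy silicon week 4 replicate 2 or sham week 4 replicate 1, and 5 without gamma week 1 replicate 2 or 10 cGy silicon week 4 replicate 2. At week 12 it was 2 without gamma week 1 replicate 1, and 3 without sham week 1 replicate 3, gamma week 12 replicate 3, 10 cGy silicon week 12 replicate 2 or sham week 12 replicate 2.

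**Figure D1:**
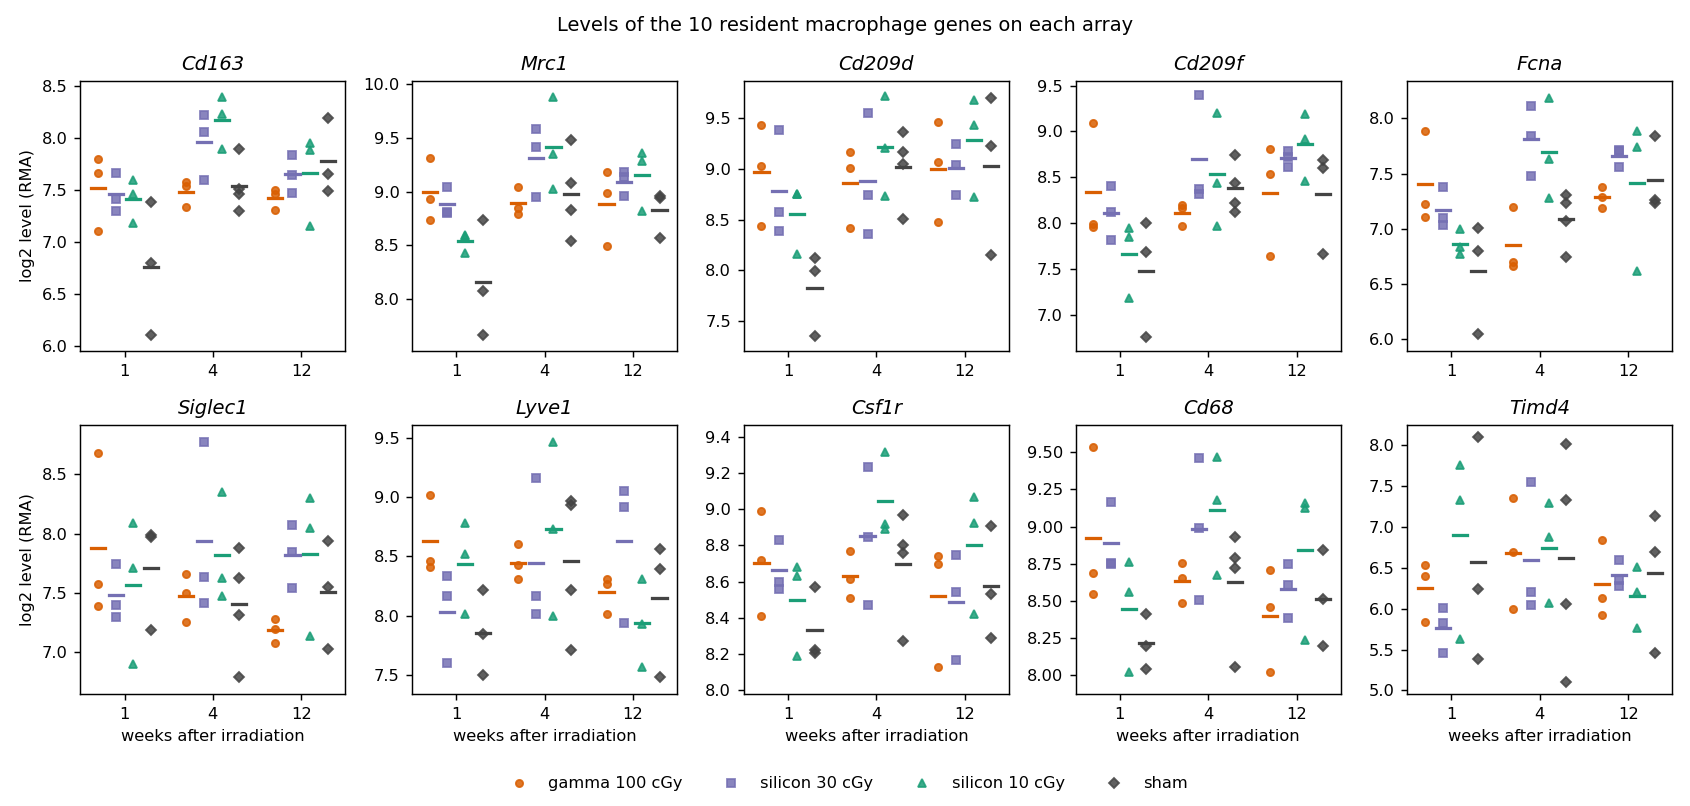
Log2 levels (RMA) of the 10 genes on each of the 37 arrays, by weeks after irradiation, with a marker per array and a bar at each group's mean. Sham glands of week 1 hold the lowest group mean in 8 of the 10 panels, and Timd4 has the widest spread within groups.

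Cd163, the scavenger receptor for hemoglobin bound to haptoglobin, had a lowest, median and highest log2 level of 6.10, 7.40 and 7.79 on the 12 arrays of week 1. These were 7.30, 7.59 and 8.39 on the 13 arrays of week 4 and 7.16, 7.57 and 8.19 on the 12 arrays of week 12. Later arrays thus lay higher, with overlap. Cd163 rose by 0.50 ± 0.12 (SE) at week 4, a 1.41-fold change (adjusted p = 0.00307), and by 0.34 ± 0.12 at week 12, a 1.27-fold change (adjusted p = 0.0332). Without sham week 1 replicate 3 these differences were 0.42 (adjusted p = 0.00664) and 0.26 (adjusted p = 0.0785), so the week 12 call was lost.

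Mrc1, the mannose receptor CD206, ran closely beside it. Its lowest, median and highest levels were 7.66, 8.73 and 9.32 at week 1, 8.54, 9.04 and 9.88 at week 4, and 8.49, 8.97 and 9.36 at week 12. It rose by 0.51 ± 0.12 at week 4 (1.42-fold, adjusted p = 0.00226) and by 0.35 ± 0.12 at week 12 (1.27-fold, adjusted p = 0.0284). Without sham week 1 replicate 3 they were 0.45 (adjusted p = 0.0056) and 0.29 (adjusted p = 0.0654), and the week 12 call was lost. The week 1 arrays of Mrc1 reached down to 7.66, below every later array.

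Cd209d and Cd209f are mouse members of the C-type lectin family of human DC-SIGN. Their genes lie close together on chromosome 8, and probes of such paralogs may bind each other's transcripts, so the 2 levels may not be independent. Cd209d had levels of 7.35, 8.51 and 9.43 (lowest, median, highest) at week 1, 8.36, 9.05 and 9.72 at week 4, and 8.15, 9.15 and 9.70 at week 12. The Cd209d difference at week 4 was 0.47 ± 0.19 (adjusted p = 0.0653), and at week 12 Cd209d rose by 0.55 ± 0.19, 1.46-fold (adjusted p = 0.0241). Leaving out sham week 1 replicate 3 gave 0.50 (adjusted p = 0.0553) and 0.59 (adjusted p = 0.021).

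Cd209f had levels of 6.75, 7.95 and 9.09 at week 1, 7.96, 8.32 and 9.40 at week 4, and 7.63, 8.65 and 9.20 at week 12. It rose by 0.53 ± 0.18 at week 4 (1.45-fold, adjusted p = 0.0302) and by 0.65 ± 0.18 at week 12 (1.57-fold, adjusted p = 0.00645). At week 12 the Cd209f change was the largest of the 10. Without sham week 1 replicate 3 its week 4 difference was 0.44 (adjusted p = 0.0674) and its week 12 difference 0.56 (adjusted p = 0.0158).

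Fcna, or ficolin A, a secreted lectin that starts the lectin pathway of complement, had levels of 6.04, 7.02 and 7.88 at week 1, 6.66, 7.28 and 8.19 at week 4, and 6.61, 7.47 and 7.88 at week 12. The week 4 difference of Fcna was 0.35 ± 0.14 (adjusted p = 0.0606). At week 12 it rose by 0.44 ± 0.14, 1.35-fold (adjusted p = 0.0152). The Fcna values without sham week 1 replicate 3 were 0.28 (adjusted p = 0.129) and 0.36 (adjusted p = 0.0369). No week held a range apart from the others for any of the 10 genes.

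The other 5 genes were not called at either time. Siglec1, the sialic acid receptor sialoadhesin, differed by −0.00 ± 0.18 at week 4 and −0.08 ± 0.19 at week 12. Lyve1, a hyaluronan receptor of tissue macrophages and of lymphatic vessels, differed by 0.28 ± 0.18 and −0.01 ± 0.19 at weeks 4 and 12. Csf1r, the CSF1 receptor, differed by 0.26 ± 0.11 at week 4 (adjusted p = 0.0859) and 0.05 ± 0.11 at week 12. Cd68, a glycoprotein of the lysosome, differed by 0.22 ± 0.14 and −0.04 ± 0.14. Timd4, which binds phosphatidylserine on dying cells, differed by 0.29 ± 0.31 and −0.05 ± 0.32. The 95% confidence intervals at week 12 ran from −0.18 to 0.27 for Csf1r and from −0.33 to 0.26 for Cd68, so rises as large as that of Cd209f lie outside them. The interval of Timd4, from −0.70 to 0.60, is far wider.

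**Figure D2:**
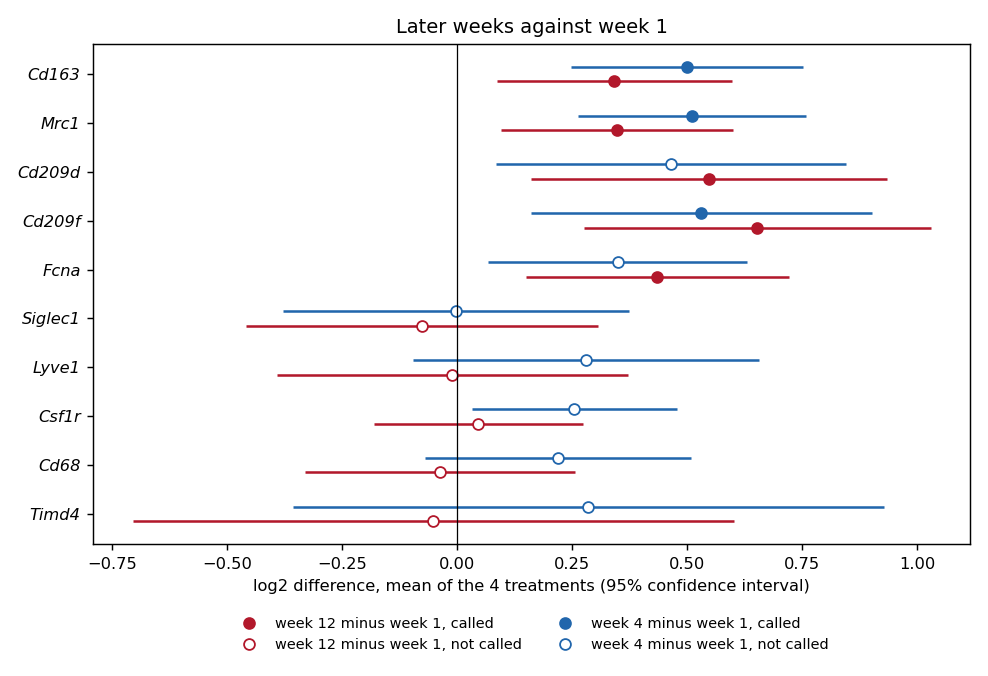
Log2 differences of week 4 and week 12 against week 1 for each gene, as the mean of the 4 treatments with 95% confidence intervals from the limma model. Filled circles mark adjusted p-values under 0.05, 3 genes at week 4 and 5 at week 12, all among Cd163, Mrc1, Cd209d, Cd209f and Fcna.

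Covariates for the mix of tissues (mean levels of lymphocyte, muscle, epithelial and brown adipocyte markers) changed which genes were called at week 12. Cd209d then rose by 0.81 (adjusted p = 0.0104) and Timd4 by 0.61 (adjusted p = 0.0116). Cd163 differed by 0.28 (adjusted p = 0.154), Mrc1 by 0.33 (adjusted p = 0.0870), Cd209f by 0.47 (adjusted p = 0.141) and Fcna by 0.33 (adjusted p = 0.119). At week 4 with these covariates, Cd163 rose by 0.47 (adjusted p = 0.0087), Mrc1 by 0.46 (adjusted p = 0.00904), Cd209d by 0.57 (adjusted p = 0.0433) and Timd4 by 0.52 (adjusted p = 0.0174), while Cd209f differed by 0.38 (adjusted p = 0.188).

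Within sham glands, Cd163, Mrc1 and Cd209d were called higher at week 4 than at week 1, and Cd163 at week 12. Cd209f and Fcna differed upwards without a call, and Siglec1 by −0.31 at week 4 and −0.21 at week 12. Cd163 had levels of 7.39, 6.80 and 6.10 on the 3 sham arrays of week 1, 7.51, 7.30, 7.89 and 7.46 on the 4 of week 4, and 7.66, 8.19 and 7.49 on the 3 of week 12. All week 12 values lay above all week 1 values. It rose by 0.78 ± 0.23 at week 4 (adjusted p = 0.0446) and by 1.02 ± 0.25 at week 12, 2.02-fold (adjusted p = 0.0181).

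Mrc1 had sham levels of 8.73, 8.07 and 7.66 at week 1, 8.54, 8.83, 9.48 and 9.08 at week 4, and 8.57, 8.96 and 8.94 at week 12. It rose by 0.83 ± 0.23 in sham at week 4 (adjusted p = 0.0296). Its difference at week 12 was 0.67 ± 0.25 (adjusted p = 0.113).

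Cd209d had sham levels of 7.99, 7.35 and 8.12 at week 1, 8.51, 9.17, 9.37 and 9.05 at week 4, and 8.15, 9.70 and 9.23 at week 12. No sham array of week 1 reached any later one. It rose by 1.20 ± 0.35 at week 4, 2.30-fold (adjusted p = 0.0401), and differed by 1.20 ± 0.38 at week 12 (adjusted p = 0.0597). In all, 3 of the 10 genes were called higher in sham at week 4 and 1 at week 12, against 1.93% and 1.65% of all genes. Groups did not overlap, with week 12 higher, for 3 of the 10 genes (7.67% of all genes), and with week 4 higher for 2 (5.55% of all genes).

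These sham calls changed with single arrays. Without sham week 1 replicate 3, 1 of the 10 genes was called at week 4 and 0 at week 12: Cd163 differed by 0.45 at week 4 (adjusted p = 0.280) and by 0.69 at week 12 (adjusted p = 0.125), and Mrc1 by 0.58 at week 4 (adjusted p = 0.170). At week 4, 0 were called without sham week 1 replicate 2, sham week 4 replicate 3 or sham week 4 replicate 4. At week 12, 0 were called without sham week 12 replicate 2, where the Cd163 difference was 0.81 (adjusted p = 0.0791), and 2 without sham week 1 replicate 1, sham week 4 replicate 1, 10 cGy silicon week 12 replicate 1 or sham week 12 replicate 1. With the replicate number as a block, 0 of the 10 were called at week 4.

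In gamma-irradiated glands the week differences lay near or below 0 for most of the 10 genes. Cd163 had gamma levels of 7.10, 7.79 and 7.66 at week 1, 7.54, 7.57 and 7.33 at week 4, and 7.31, 7.46 and 7.50 at week 12. Fcna had gamma levels of 7.11, 7.88 and 7.22 at week 1, 6.66, 7.20 and 6.70 at week 4, and 7.19, 7.38 and 7.29 at week 12. The 3 weeks overlapped for both genes.

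Differences of week 4 from week 1 were, for Cd163, −0.04 after gamma, 0.50 after 30 cGy silicon, 0.76 after 10 cGy silicon and 0.78 in sham. For Mrc1 they were −0.10, 0.43, 0.88 and 0.83 in the same order of treatments, and for Fcna −0.55, 0.64, 0.83 and 0.47. At week 12 the Cd209f differences from week 1 were −0.02 after gamma, 0.59 after 30 cGy silicon, 1.20 after 10 cGy silicon and 0.84 in sham.

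Whether the gamma and sham glands differed in their week difference was tested as the gamma effect at week 4 minus that at week 1. Over the 10 genes this had a median of −0.80, against 0.02 over all genes, and 1 of the 10 lay above 0, where 53% of all genes did. With single arrays left out, this median ran from −1.05 without sham week 1 replicate 1 to −0.63 without gamma week 1 replicate 2. In limma 0 of the 10 were called, and 0 of all genes. An unadjusted p under 0.05 was found for 5 of the 10, against 9.12% of all genes. The lowest adjusted p was 0.489, for Mrc1, at −0.93. For week 12 minus week 1 the median was −0.80, 4 of the 10 had an unadjusted p under 0.05 (3.38% of all genes), and no adjusted p was below 1.00. A moderated F test over the 6 differences of an effect between weeks called 0 of the 10 genes and 0 of all genes, with an unadjusted p under 0.05 for Cd163 (0.0426) and Fcna (0.0255), against 3.96% of all genes.

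**Figure D3:**
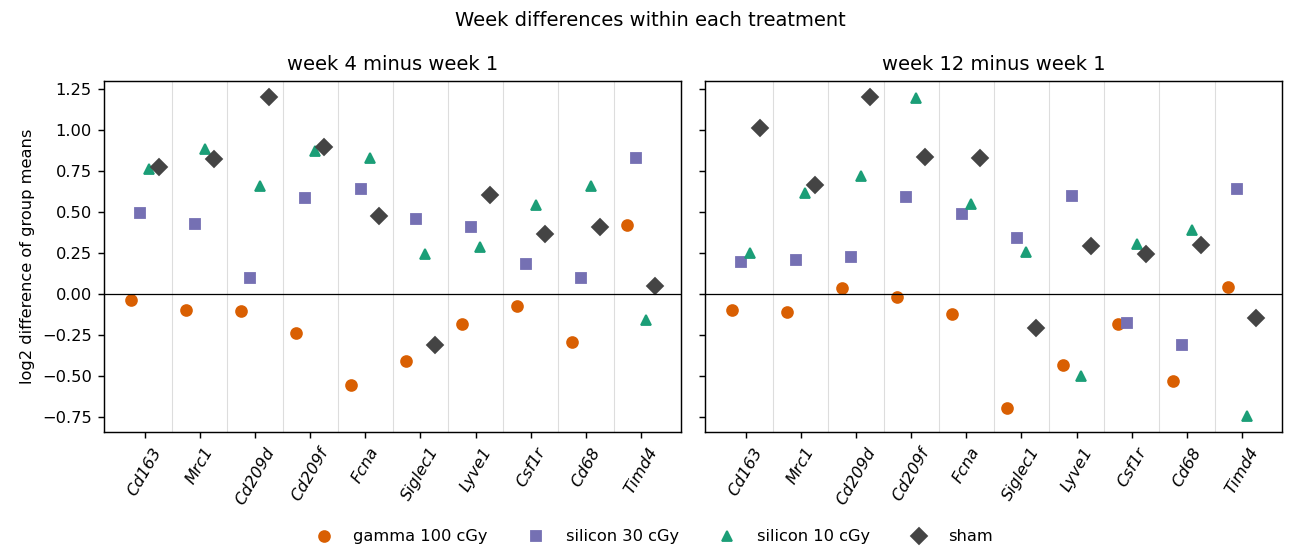
Log2 differences of group means, week 4 minus week 1 and week 12 minus week 1, within each treatment for each gene. Gamma points lie below 0 for 9 of the 10 genes at week 4 and 8 at week 12, while sham points reach 1.20 for Cd209d.

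The irradiated glands of week 1 were set against sham glands of the same week. No gene of the 10 was called after any irradiation. After 100 cGy gamma 9 of the 10 differences lay above 0, where 51.9% of all genes did, with a median of 0.77 against 0.01 over all genes. After 30 cGy silicon 8 of the 10 lay above 0 (55.2% of all genes), with a median of 0.60 against 0.03. After 10 cGy silicon 9 of the 10 did (52.2% of all genes), with a median of 0.29 against 0.01. Under limma, 0.0228%, 0.0228% and 0.0835% of all genes were called in these 3 comparisons, which share the sham arrays.

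Higher at an unadjusted p under 0.05 were 7 of the 10 genes after gamma, 4 after 30 cGy silicon and 1 after 10 cGy silicon, against 4.78%, 8.5% and 3.58% of all genes. The smallest adjusted p was 0.353, 0.300 and 0.728 in turn. Non-overlapping arrays, irradiated higher, were seen for 4 of the 10 genes after gamma (8.77% of all genes), 4 after 30 cGy silicon (14.5%) and 1 after 10 cGy silicon (7.92%).

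Cd209d gave the widest difference at week 1. Its levels were 8.44, 9.43 and 9.03 after gamma, 9.39, 8.58 and 8.39 after 30 cGy silicon and 8.76, 8.17 and 8.75 after 10 cGy silicon, against 7.99, 7.35 and 8.12 in sham. All 9 irradiated arrays lay above all 3 sham arrays, which held for no other of the 10 genes and for 2.44% of all genes. The differences from sham were 1.15 ± 0.38 after gamma (adjusted p = 0.411), 0.96 ± 0.38 after 30 cGy silicon (adjusted p = 0.350) and 0.74 ± 0.38 after 10 cGy silicon (adjusted p = 0.932).

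Cd163 at week 1 had levels of 7.10, 7.79 and 7.66 after gamma, 7.66, 7.29 and 7.42 after 30 cGy silicon and 7.18, 7.59 and 7.46 after 10 cGy silicon, against 7.39, 6.80 and 6.10 in sham. Only the first sham array reached into the irradiated range. Its differences were 0.76 ± 0.25 after gamma (adjusted p = 0.411), 0.70 ± 0.25 after 30 cGy silicon (adjusted p = 0.324) and 0.65 ± 0.25 after 10 cGy silicon (adjusted p = 0.728).

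Mrc1 at week 1 had levels of 8.73, 9.32 and 8.93 after gamma, 9.04, 8.81 and 8.80 after 30 cGy silicon and 8.58, 8.43 and 8.59 after 10 cGy silicon, against 8.73, 8.07 and 7.66 in sham. The 10 cGy arrays lay inside the sham range and the 30 cGy arrays above it. The Mrc1 differences were 0.84 ± 0.25 after gamma (adjusted p = 0.353), 0.73 ± 0.25 after 30 cGy silicon (adjusted p = 0.300) and 0.38 ± 0.25 after 10 cGy silicon (adjusted p = 0.969).

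Cd68 at week 1 had levels of 8.55, 9.54 and 8.69 after gamma, 8.75, 8.75 and 9.16 after 30 cGy silicon and 8.76, 8.02 and 8.56 after 10 cGy silicon, against 8.20, 8.04 and 8.41 in sham. The gamma and 30 cGy arrays lay above sham. Differences for this lysosomal gene were 0.71 ± 0.29 after gamma (adjusted p = 0.542) and 0.67 ± 0.29 after 30 cGy silicon (adjusted p = 0.376). Siglec1, by contrast, differed by 0.17 ± 0.37 after gamma and −0.23 ± 0.37 after 30 cGy silicon, and Timd4 by −0.32 ± 0.64 and −0.81 ± 0.64.

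Sham week 1 replicate 3 carried part of these differences. Without it the medians over the 10 genes were 0.503 after gamma, 0.272 after 30 cGy silicon and 0.225 after 10 cGy silicon. An unadjusted p under 0.05, in either direction, was left for 3, 2 and 1 of the 10 genes, against 6.87%, 10.2% and 8.78% of all genes. With all arrays the shares of all genes in either direction were 7.82%, 12% and 5.4%. Cd163 after gamma was then 0.43, Mrc1 0.59, Fcna 0.50 and Cd209f 0.50, while Cd209d was 1.30 and Cd68 0.81. The lymphocyte marker mean of that array was 8.36, against 6.30 and 4.82 on sham week 1 replicates 1 and 2. The irradiated glands of week 1 as a whole were compared with all sham arrays of that week. Above sham lay 0 of 8 T and NK cell markers and 0 of 7 B cell markers, against 53.3% of all genes. Their medians were −0.75 and −1.08, and 0 were called. These marker values were not computed without sham replicate 3. Lymphocyte means of the irradiated week 1 arrays ran from 4.11 to 7.85, a range that holds sham replicates 1 and 2 and lies below replicate 3. The marker counts and medians include replicate 3, so they do not show a drop against the other sham arrays. The part of lymphocytes in the result was not tested.

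**Figure D4:**
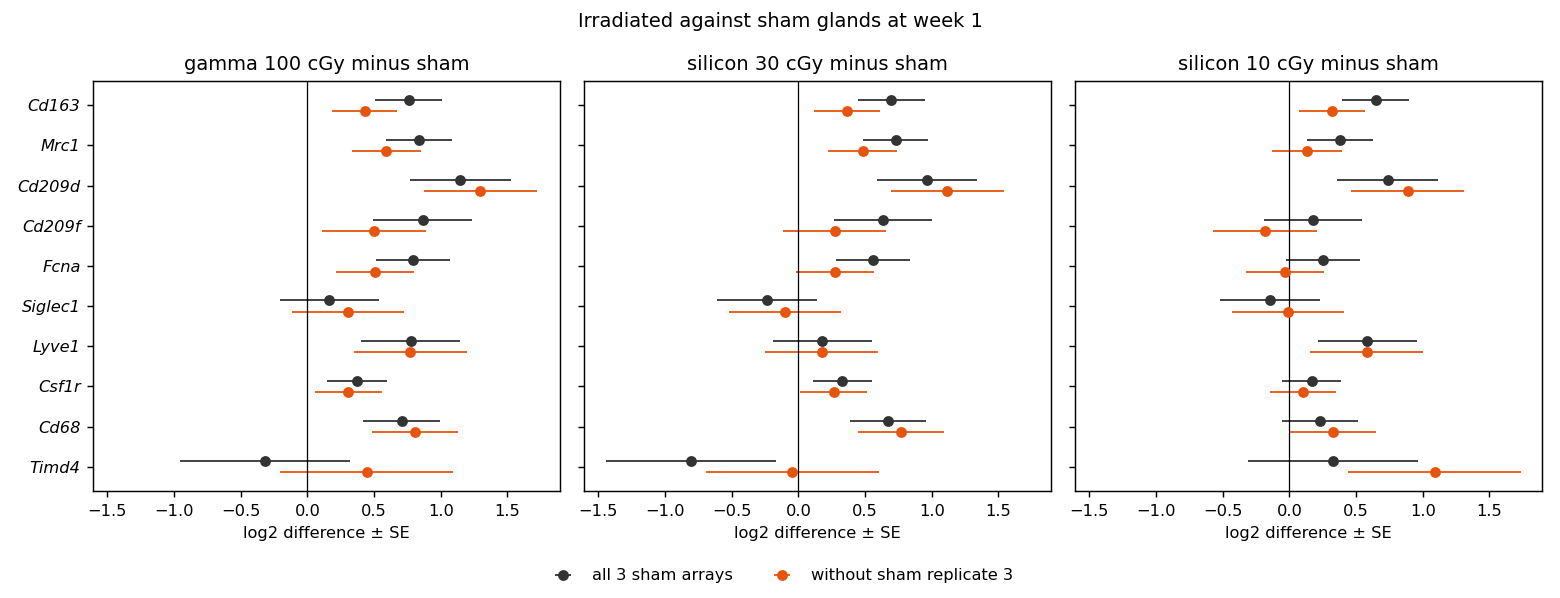
Log2 differences ± SE at week 1 for gamma, 30 cGy silicon and 10 cGy silicon against sham, with all 3 sham arrays and without sham replicate 3. For gamma, 9 of the 10 genes lie above 0 with all arrays and 10 of the 10 without that replicate, and Cd163, Cd209f and Fcna move towards 0 when it is left out.

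At weeks 4 and 12 the 10 genes were again compared with sham of the same week. Median differences over the 10 genes at week 4 were −0.06 after gamma, 0.33 after 30 cGy silicon and 0.38 after 10 cGy silicon, against 0.0351, 0.0294 and 0.025 over all genes. At week 12 they were −0.09, 0.14 and 0.24, against 0.01, 0.01 and 0.02. None of these 6 comparisons called any gene at all in limma. Higher at week 4 with an unadjusted p under 0.05 were 0 of the 10 after gamma (3.66% of all genes), 1 after 30 cGy silicon (6.1%) and 2 after 10 cGy silicon (2.4%). At week 12 these counts were 0 in all 3 comparisons, against 1.66%, 2.84% and 2.52% of all genes.

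Fcna at week 4 had levels of 6.66, 7.20 and 6.70 after gamma, 7.84, 7.48 and 8.12 after 30 cGy silicon and 8.19, 7.28 and 7.63 after 10 cGy silicon, against 6.74, 7.07, 7.24 and 7.31 in sham. All 3 arrays of 30 cGy silicon lay above sham, as for 6.19% of all genes, and the gamma arrays overlapped it. The 6 silicon arrays lay above the 3 gamma arrays, a difference that was not tested at week 4 alone. The share of all genes separated in this way was not computed. The difference from sham was −0.23 after gamma (adjusted p = 0.843), 0.72 after 30 cGy silicon (adjusted p = 0.503) and 0.61 after 10 cGy silicon (adjusted p = 1.00).

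Cd163 at week 4 had levels of 7.54, 7.57 and 7.33 after gamma, 8.06, 7.59 and 8.21 after 30 cGy silicon and 8.39, 7.90 and 8.23 after 10 cGy silicon, against 7.51, 7.30, 7.89 and 7.46 in sham. The 10 cGy arrays lay above all sham arrays, as for 2.24% of all genes. Its difference from sham was 0.63 after 10 cGy silicon and 0.42 after 30 cGy silicon (adjusted p = 1.00 and 0.645), and −0.06 after gamma (adjusted p = 0.956).

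Over the mean of the 3 weeks, 9 of the 10 genes lay above sham after 30 cGy silicon (58.4% of all genes), with a median difference of 0.30 against 0.03 over all genes. All 10 did after 10 cGy silicon (56.3% of all genes), with a median of 0.28, and 8 after gamma (57.0% of all genes), with a median of 0.17. Higher at an unadjusted p under 0.05 were 5, 3 and 0 of the 10 in the order named, against 10.2%, 5.14% and 3.86% of all genes. None was called, against 0.0304% of all genes for 30 cGy silicon and 0 genes for the others, and the smallest adjusted p was 0.199, for Mrc1 and Fcna after 30 cGy silicon. The differences were 0.44 for Mrc1 and 0.50 for Fcna.

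Silicon at 30 cGy and gamma at 100 cGy differed in dose as well as in kind. The median difference between them over 3 weeks was 0.17, with 7 of the 10 genes above 0 (52.4% of all genes), 1 higher at an unadjusted p under 0.05 (8.17% of all genes) and none called (0.00759% of all genes). The median difference of 30 from 10 cGy silicon was 0.01, with 0 of the 10 higher at an unadjusted p under 0.05 (3.72% of all genes) and 0 called in limma (0.0228% of all genes). Over the 18 comparisons of irradiation and the 9 differences of an effect between weeks, 27 in all, the highest number of the 10 genes called was 0 in each of 48 settings of the analysis.

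Among the 12 group means, sham week 1 was the lowest for 8 of the 10 genes. The exceptions were Siglec1, lowest after gamma at week 12 (7.18), and Timd4, lowest after 30 cGy silicon at week 1 (5.77). Without sham week 1 replicate 3, sham week 1 was no longer the lowest for Cd209f and Fcna. The difference of 10 cGy silicon from sham at week 1 was then −0.18 for Cd209f and −0.04 for Fcna. The highest group mean was that of 10 cGy silicon at week 4 for Cd163 (8.17), Mrc1 (9.42), Lyve1 (8.73), Csf1r (9.04) and Cd68 (9.11). Spans between the highest and lowest group mean ran from 0.71 for Csf1r to 1.46 for Cd209d. Of the 110 gaps between neighbouring groups in these orders, 3 exceeded the gene's pooled SD. They were those between 10 cGy silicon at week 1 and sham at week 1 for Cd163 (0.65), Mrc1 (0.38) and Cd209d (0.74), where sham was the lower neighbour. All other neighbours differed by less than the spread between arrays. Without sham week 1 replicate 3 these 3 gaps were 0.318 for Cd163, 0.133 for Mrc1 and 0.887 for Cd209d. The pooled SDs with all arrays, that replicate included, were 0.319, 0.315 and 0.488 in turn. Pooled SDs without it were not computed, so these smaller gaps were not set against an SD of the same arrays.

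A moderated F test over all 12 groups called Cd163 (adjusted p = 0.0200), Mrc1 (adjusted p = 0.0213) and Fcna (adjusted p = 0.0266), where 15.8% of all genes were called. The other 7 genes had adjusted p-values from 0.108 for Cd209f to 0.939 for Timd4. Without sham week 1 replicate 3, 0 of the 10 were called, and without replicate 2, 1.

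Levels of 9 of the genes were correlated from array to array, and those of Timd4 less so. Pearson correlations over the 37 arrays were computed for the 45 pairs, with permutation p-values from 100000 permutations (two-sided, not below 1e-05) adjusted over the pairs. The 36 pairs without Timd4 had r from 0.327 to 0.872 with a median of 0.649, and 35 had an adjusted p under 0.05. The 9 pairs with Timd4 had r from −0.0605 to 0.580, and 3 had an adjusted p under 0.05. Arrays share their normalisation and their mix of tissues, so these r values do not measure independent agreement. The permutations ran over all arrays without regard to group, so differences between groups can add to them. The share of pairs of all genes that pass the same threshold was not computed.

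Csf1r and Cd68 were closest, with r = 0.872 and rho = 0.865 (permutation p = 1e-05 for both, adjusted p = 3.2e-05 and 4.5e-05). Their r was 0.795, 0.928 and 0.911 within weeks 1, 4 and 12, and 0.832 without the 2 arrays of most extreme Csf1r. Cd163 and Mrc1 had r = 0.860 and rho = 0.766 (permutation p = 1e-05 for both, adjusted p = 3.2e-05 and 4.5e-05). Within weeks 1, 4 and 12 this pair had r = 0.890, 0.877 and 0.499, and 0.764 without the 2 arrays of most extreme Cd163.

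The mean deviation of the 10 genes from their own means was lowest on sham week 1 replicate 2 (−0.77), 10 cGy silicon week 1 replicate 2 (−0.57) and sham week 1 replicate 3 (−0.55). It was highest on 30 cGy silicon week 4 replicate 3 (0.84) and 10 cGy silicon week 4 replicate 1 (0.82), with gamma week 1 replicate 2 next (0.56). The lowest and the highest arrays thus came from weeks 1 and 4.

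Timd4 levels were correlated with lymphocyte marker levels. Timd4 had levels of 7.76, 5.63 and 7.32 at week 1 after 10 cGy silicon, against 6.24, 5.39 and 8.10 in sham at week 1, and 5.10, 7.32, 6.05 and 8.01 in sham at week 4. Arrays of 1 group thus lay far apart, and these groups overlapped. Against the mean level of the T, NK and B cell markers, Timd4 had r = 0.817 and rho = 0.730 over 37 arrays (permutation p = 1e-05 for both, adjusted over the 10 genes p = 0.0001). The relation held within weeks 1, 4 and 12 (r = 0.906, 0.796 and 0.748) and without the 2 arrays of most extreme lymphocyte mean (r = 0.766).

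For the 9 other genes r with the lymphocyte mean lay between −0.387 for Fcna and 0.301 for Siglec1, and no adjusted p was below 0.068. Cd163 had r = −0.375 and rho = −0.398 (permutation p = 0.020 and 0.014, adjusted p = 0.068 and 0.072). Within weeks 1, 4 and 12 it was −0.581, −0.498 and 0.107, and without the 2 arrays of most extreme lymphocyte mean, both of week 1, the pooled r was −0.169.

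**Figure D5:**
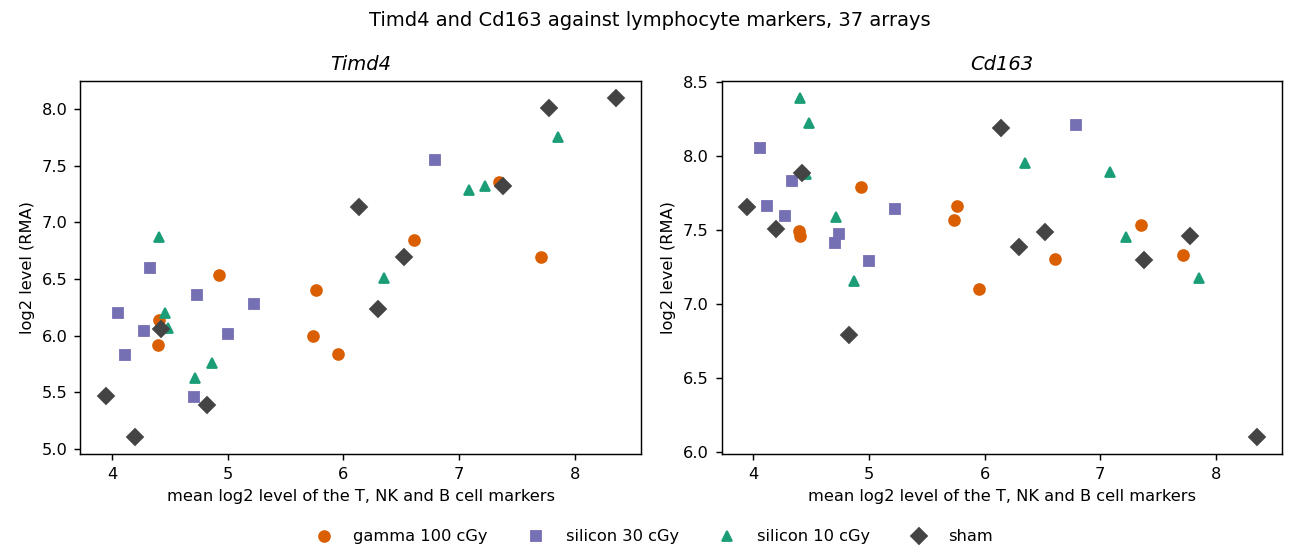
Log2 levels of Timd4 and Cd163 on the 37 arrays against the mean log2 level of T, NK and B cell markers, coloured by treatment. Timd4 climbs with the markers (r = 0.817), and the Cd163 cloud leans down (r = −0.375) with sham week 1 replicate 3 at the lower right.

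Genes most like the 10 were ranked by Pearson r over the 37 arrays with their mean deviation, as a description without a test. The closest were Ms4a8a (r = 0.934), C1qc, a chain of complement C1q (0.905), Wfdc17 (0.899), Fcgr2b, the inhibitory Fc receptor (0.894), F13a1, the A chain of factor XIII (0.892), and Folr2, the folate receptor beta (0.883). Mrc1 was most like F13a1 (r = 0.955), Cd163 most like Abca9 (0.865), Cd209d most like Wfdc17 (0.863), Cd209f most like Pf4 (0.862) and Fcna most like Vsig4 (0.874). Siglec1 was most like Pld4 (0.763), Lyve1 most like Ms4a8a (0.795), Csf1r most like Folr2 (0.898) and Cd68 most like Fcer1g (0.841). Timd4 was most like Mcoln2 (0.917), P2ry13 (0.911) and Rnase6 (0.911).

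Of 19 other genes listed for resident macrophages, 17 were tested, and at week 4 against week 1, 4 rose and 1 fell, where 11% of all genes rose and 14.8% fell. Pf4, a chemokine of platelets that such macrophages also make, rose by 0.73 ± 0.14 (adjusted p = 0.000352), Ccl8, another chemokine, by 0.93 ± 0.26 (adjusted p = 0.00961), F13a1 by 0.47 ± 0.16 (adjusted p = 0.0290) and Ms4a7 by 0.35 ± 0.12 (adjusted p = 0.0231). Maf, a transcription factor of resident macrophages, fell by 0.45 (adjusted p = 0.000128). Their median difference was 0.16.

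At week 12 against week 1, 4 of the 17 rose and 2 fell, where 15.2% of all genes rose and 20.4% fell, with a median of 0.04 against −0.02 over all genes. These all-gene shares also stand behind the counts of the lists that follow, which are small and are given as descriptions. Ccl8 rose by 1.25 ± 0.27 (adjusted p = 0.00057), Vsig4, a complement receptor, by 0.73 ± 0.22 (adjusted p = 0.0110), Pf4 by 0.65 ± 0.15 and Ms4a7 by 0.31 ± 0.12. Maf fell by 0.52 and Mertk, a receptor for dying cells, by 0.54.

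Genes of macrophages in general gave 3 rises among 14 at week 4 against week 1 and 0 falls. These were Ctss, the protease cathepsin S (0.60 ± 0.16, adjusted p = 0.00537), Itgam, the integrin CD11b (0.40 ± 0.13, adjusted p = 0.0199), and Lyz2, lysozyme (0.39 ± 0.14, adjusted p = 0.0350). At week 12 only Cd14, the co-receptor for bacterial lipopolysaccharide, rose (0.74 ± 0.14, adjusted p = 0.000191). Among 5 tested genes of colony stimulating factor signalling, 2 fell at both times. They were the GM-CSF receptor chains Csf2ra (−0.49 ± 0.09 at week 4, −0.56 ± 0.09 at week 12) and Csf2rb (−0.35 ± 0.11 at week 4, −0.41 ± 0.11 at week 12). The CSF1 receptor's ligands Csf1 and Il34 differed by 0.07 and −0.10 at week 4 and by −0.05 and −0.19 at week 12, neither called.

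Receptors and bridging proteins for dying cells gave 1 rise among 9 at week 4, Pros1 (0.36 ± 0.08), and at week 12 Pros1 rose (0.30 ± 0.08) while Mertk and Axl (−0.27 ± 0.07) fell. Of 6 genes of lipid-associated macrophages, Cd9 rose at both times (0.43 ± 0.13 and 0.44 ± 0.13) and the others were not called.

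Markers of other cells moved in the same week comparisons. Among monocyte and neutrophil markers, 1 of 5 rose at week 4 and 2 at week 12. Ccr2, the receptor that draws monocytes into tissue, rose by 0.45 ± 0.11 and 0.44 ± 0.11. Mast cell genes gave 3 rises among 6 at week 4, and 4 rises and 1 fall at week 12. Fibroblast genes gave 2 rises among 7 at week 4, and 2 rises and 1 fall at week 12, with Lum, the collagen-binding lumican, up by 0.58 ± 0.15 at week 4. White adipocyte genes gave 3 falls among 7 at both times, of which Plin1, which coats lipid droplets, fell by 0.56 at week 4 and 0.51 at week 12. Glucocorticoid-induced genes gave 2 falls among 8 at week 4 and 7 at week 12, where Per1 fell by 1.28 and Fkbp5 by 1.15. No marker of T and NK cells (8 tested), B cells (7) or dendritic cells (7) was called at either time, and their medians at week 12 were −0.43, −0.91 and −0.15. Among muscle genes, 1 of 9 fell at week 12 (Atp2a1, by 2.21), and 0 were called at week 4. Of 4 brown adipocyte genes, Dio2 rose at both times. Of 7 luminal genes, Epcam rose at week 12 (by 0.36), and of 7 basal genes 0 were called. The part of these cells in the week differences of the 10 genes was not tested beyond the covariates above.

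Lymphatic vessels share Lyve1 with macrophages. Of the 4 other lymphatic genes tested, the mean level lay between 5.50 and 6.06 on all arrays. At week 12 against week 1, Pdpn, or podoplanin, rose by 0.27 ± 0.10 (adjusted p = 0.0292) and Flt4, the receptor of lymphatic growth factors, fell by 0.33 (adjusted p = 0.0215). Prox1, the factor that defines lymphatic endothelium, differed by −0.31 ± 0.15 (adjusted p = 0.106).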

How the data were processed

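RNA of 37 mammary glands had been hybridised to Affymetrix whole-transcript arrays, 1 array a sample. The deposited values are log2 levels that the authors made by RMA in oligo (source: per the submitters' processing notes); the versions are not given in the sources used here. RMA corrects background, quantile-normalises and summarises probes, so array medians lay between 5.04 and 5.25 and values between 0.817 and 13.8. Background correction and scan batches could not be varied from these values, and the number of arrays limits the precision.

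Of 35556 probe sets, 23099 were listed in the platform annotation, 21218 with 1 symbol and 1881 with several. The 12457 others are unnamed here. For the 1386 genes with several probe sets the one with the highest mean was kept. Genes with a mean above the 30th percentile, a log2 level of 4.04, were tested. limma 3.58.1 (R 4.3.3) fitted the 12 group means to all arrays with lmFit and eBayes (25 residual and 3.4 prior degrees of freedom), and p-values were adjusted by Benjamini-Hochberg over the genes tested. Correlations, motif searches and figures used Python 3.11.15. Promoter sequences are from RefSeq (GRCm38.p6). The scripts were tested on simulated data.

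The 10 genes, the 19 gene lists and the motifs were chosen with earlier results of these data known. All 10 genes are named whatever their values. From each other list, genes past the threshold and up to 4 with the largest differences could be named, and genes most like the 10 were ranked by Pearson r. Alternatives covered the filter, the choice of probe set, quantile normalisation, eBayes settings, array weights, the replicate block, the samples fitted, tissue-mix covariates, the 2 least-like arrays and each array left out in turn. Replicate numbers were not treated as pairs.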

Additional observations from a re-analysis of the deposited data

How the results depend on the processing

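Single genes gave 3300 values under 10 alternatives beside leaving out an array. Of these, 3265 counted as unchanged, 25 lost the call, 7 gained it and 3 reversed. A sign change counted as unchanged where the main value lay within 1 SE of 0 and neither fit called the gene. There were 494 such sign changes over all alternatives, fits without a single array included. With tissue-mix covariates Timd4 turned to 0.10 for 30 cGy silicon against sham at week 1, 0.61 for week 12 against week 1 and 0.0947 for week 12 against week 4. Cd209f in any irradiation against sham at week 12 was −0.0168 without sham week 12 replicate 1 and up to 0.50 without another array. The 3 genes called in sham at week 4 against week 1 became 1 with no filter, with array weights or without the 2 least-like arrays, and 0 with only the groups compared. The 1 gene called in sham at week 12 became 2 with a filter at the 50th percentile or with covariates, and 0 with array weights, only the groups compared, or without the 2 least-like arrays. The 5 called at week 12 over all treatments became 3 with array weights and 2 with covariates. The median of the gamma effect at week 12 minus week 1 was −0.41 with array weights. The causes were not tested.

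With single arrays left out, counts of called genes ran from 2 to 6 for week 4 against week 1 and from 2 to 5 for week 12, from 0 to 3 and 0 to 2 for the same weeks in sham, and from 0 to 3 for the F test over 12 groups. The median of week 12 against week 4 in sham ran from −0.26 to 0.28. Cd163 and Mrc1 at week 4, and Cd209f and Fcna at week 12, over all treatments, were called in 37 of 37 such fits.

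With the replicate number as a block, the count in sham at week 4 was 0, and the other counts of called genes among the 10 did not change. Same-numbered arrays correlated with a median of 0.0211 over 54 pairs, 21 of them above 0.1, and 13 of 37 arrays correlated best with their own number, so the numbers were not taken as pairs.

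Counts over all genes moved by over 1.5 times in some settings. For sham at week 4 against week 1 (775) they were 1557 with array weights and 0 with only the groups compared, and for sham at week 12 (674) 0 with only the groups compared. For week 12 against week 4 (216) they were 540 with array weights, 138 with the block, 99 with only the groups compared and 718 without the 2 least-like arrays. At week 1 against sham they ran from 0 to 37 for gamma (3), from 0 to 410 for 30 cGy silicon (3), from 0 to 88 for 10 cGy silicon (11) and from 0 to 217 for any irradiation (10). Over 3 weeks they ran from 0 to 288 for 30 cGy silicon against sham (4), from 1 to 254 for 30 cGy silicon against gamma (1), and reached 18 for 30 against 10 cGy silicon (3).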
